A study of Rattus norvegicus with 20 samples.

Results

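Genes of mitosis and of the mitotic spindle were followed in rat lung after a septic operation and after stimulation of the vagus nerve. The set was a list of 44 named genes, chosen by symbol with no measured value in the rule. The list was drawn up with earlier results of these data known. All 44 were found among the 19060 genes of the deposited table. RNA from lung tissue was sequenced in 20 libraries, 5 in each of 4 groups, and the labels give 5 rats per group. CLP+VNS rats had cecal ligation and puncture (CLP), in which the caecum is tied and pierced so that gut bacteria leak into the abdomen, and also had the right vagus nerve in the neck stimulated (VNS). CLP rats had the ligation and puncture alone, which the submitters used as a model of acute respiratory distress syndrome, ARDS. Sham+VNS rats had the stimulation after sham surgery, and Sham rats had sham surgery alone, in which the abdomen was opened and the caecum handled but left intact. Every group therefore had abdominal surgery. Strain, age, sex, the settings of the stimulation and the time from surgery to tissue collection are not stated in the labels, and neither is whether the CLP and Sham rats had a sham procedure on the nerve.

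Cells that divide switch these genes on together late in the cell cycle, and most of their transcripts are scarce in resting cells. Cyclin-dependent kinase 1 with B-type cyclins starts mitosis, the spindle pulls the chromosomes apart under the watch of a checkpoint at the kinetochores, and the anaphase-promoting complex (APC/C) then destroys the cyclins so that the cell can divide. In adult lung few cells are in cycle at rest, and endothelial, epithelial and immune cells are all known to re-enter it after injury.

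Total estimated counts ran from 13729654 to 14453188 per library. All 44 genes passed the filter on low counts, as 14794 genes of the table did. Levels are given as CPM, counts scaled to a common library total after correction by TMM, a factor for unequal library composition. The smallest count of any of the 44 was 4, for Cdca3 and Ttk in Sham replicate 5, so the lowest values carry large counting error. Per transcript length, in the authors' deposited TPM, group medians over the set were 3.10 TPM in CLP+VNS, 5.14 TPM in CLP, 3.41 TPM in Sham+VNS and 2.46 TPM in Sham. Sgo1 had the lowest TPM of the set in all 4 groups, at 0.574 TPM in CLP+VNS, 1.11 TPM in CLP, 0.624 TPM in Sham+VNS and 0.522 TPM in Sham. Markers of lung epithelium were abundant in every library: the 8 markers of alveolar type 2 cells summed to between 21041.9 and 37601.8 CPM. Sham replicate 1 stood apart in markers of fat, with 1410.8 CPM summed over 5 genes against 11.7 to 53.7 CPM in Sham replicates 2 to 5, and of heart muscle, with 127.6 CPM over 5 genes against 9.58 to 38.6 CPM.

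The mitosis and spindle genes rose in the lungs of CLP rats relative to Sham rats almost without exception. In CLP, 40 of the 44 genes were higher than in Sham, and none was lower. Of all genes tested, 19.8% were called higher in that comparison and 20.5% lower. Calls rest on an adjusted p below 0.05 in edgeR's quasi-likelihood test, with Benjamini-Hochberg adjustment over the 14794 genes. The median log2 change over the set was 1.19, against -0.013 over all genes tested. For 28 of the 44, every CLP library lay above every Sham library, which held for 13.4% of all genes. The 4 genes that were not called were Spc25, Kif23, Kif4a and Mad2l1, with log2 changes of 0.53, 0.40, 0.27 and 0.13. In whole tissue, more cells of a type and more RNA per cell cannot be told apart.

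**Figure D1:**
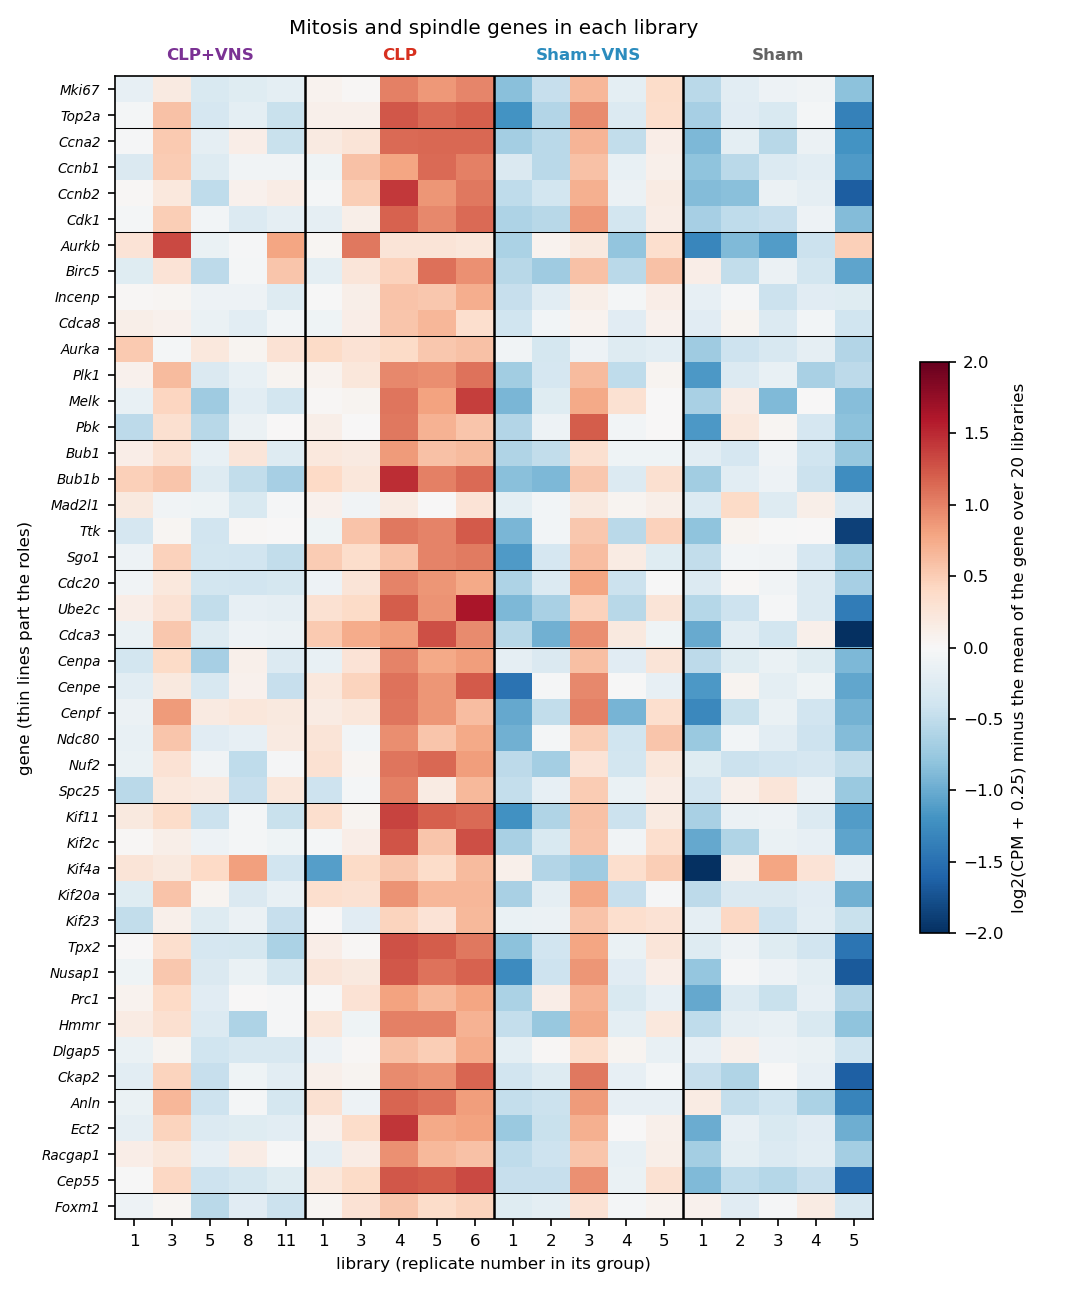
Each row is 1 of the 44 genes and each column 1 library, labelled with its replicate number. Colour gives log2(CPM + 0.25) minus the mean of that gene over the 20 libraries, and thin lines part the roles. CLP replicates 4, 5 and 6 are the darkest red columns, and within their groups Sham+VNS replicate 3 and CLP+VNS replicate 3 are high in most rows.

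Both general markers of proliferation rose in CLP. Mki67, which encodes the Ki-67 protein that coats mitotic chromosomes, had 22.8, 22.1, 43.6, 39.5 and 42.6 CPM in CLP replicates 1, 3, 4, 5 and 6, against 14.8, 18.7, 20.2, 20.5 and 12.2 CPM in Sham replicates 1 to 5. The groups did not overlap, and CLP replicates 1 and 3 lay much closer to Sham than the other three did. The log2 change of Mki67 was 0.98 ± 0.26 (SE; adjusted p = 0.00512). Top2a, the topoisomerase that untangles sister chromosomes, had 12.0, 12.0, 26.6, 24.8 and 25.9 CPM in CLP, against 6.91, 9.50, 8.93, 10.8 and 4.21 CPM in Sham. It showed the same split, with 2 CLP libraries just above the highest Sham library and 3 far above it, and a log2 change of 1.33 ± 0.36 (adjusted p = 0.00688).

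The 3 cyclins of late cycle and their kinase were all higher in CLP, by a median log2 change of 1.41. Cdk1, the kinase that drives entry into mitosis, had 5.43, 6.71, 14.3, 12.2 and 13.9 CPM in CLP, against 3.81, 4.26, 4.43, 5.70 and 3.25 CPM in Sham. CLP replicate 1 fell within the Sham range, and the other 4 CLP libraries lay above it. The log2 change of Cdk1 was 1.29 ± 0.31 (adjusted p = 0.00256). Ccnb1, the B-type cyclin that activates Cdk1, had 4.07, 6.64, 7.67, 9.89 and 8.96 CPM in CLP, against 2.40, 2.93, 3.56, 3.73 and 1.86 CPM in Sham. Ccna2, the A-type cyclin of S phase and early mitosis, had 4.14, 4.38, 8.25, 8.35 and 8.38 CPM in CLP, against 1.83, 3.14, 2.39, 3.31 and 1.45 CPM in Sham. Neither cyclin overlapped between the groups, and their log2 changes were 1.36 ± 0.26 (adjusted p = 0.000379) and 1.46 ± 0.31 (adjusted p = 0.000956). Ccnb2, the second B-type cyclin, averaged 7.72 ± 2.86 CPM in CLP and 2.62 ± 1.12 CPM in Sham (SD, n = 5 each), a log2 change of 1.56 ± 0.32 (adjusted p = 0.000636).

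Promoters of the set were searched for the letters of known elements. The genes were listed for their part in mitosis, so motif shares over them do not depend on their change in CLP. The part of any element in that change was not tested. In human and mouse cells, many late cell cycle genes are held down outside the cycle through an element called CHR, bound by the MuvB core of the DREAM complex, and are activated through CCAAT boxes, bound by the factor NF-Y. The RefSeq table of the assembly GRCr8 held a promoter for 36 of the 44 genes, each running from 250 bases before to 50 bases after the annotated start. For CHR the letters searched on both strands were TTTGAA, with the known variant TTCGAA counted as well. The CCAAT box was searched by its own letters on both strands, and matches of the 2 motifs can share at most 1 letter. Of the 36 promoters, 26 held CHR letters, which is 72.2%, against 18.5% of 19005 promoters of protein-coding genes. CCAAT was found in 72.2% of the 36 against 38.4%, both motifs in 55.6% against 7.63%, and at least 2 CCAAT boxes in 52.8% against 12.4%. The stretch from 100 bases before to 50 bases after the start was also counted. Matches beginning there gave CHR letters in 66.7% of the 36 against 7.72% of all, and CCAAT in 66.7% against 22.3%. In some promoters the only CHR match of that stretch lay after the start. The motifs did not part called from uncalled genes. Promoters of Spc25, Kif23 and Kif4a, which were not called in CLP against Sham, hold both motifs, and that of Mad2l1 holds CHR letters. Those of Bub1, Kif2c and Melk, which were called higher, hold neither. The first 4 promoters below hold both motifs and belong to genes that were higher in CLP. The fifth, of Aurka, holds neither motif in this window and belongs to the gene of the set with the lowest adjusted p in CLP against Sham. Whether transcription of Aurka begins at this annotated start was not tested, and no other start of it was searched. Capitals mark matches on either strand, so that a CHR or a CCAAT box of the opposite strand appears as its reverse complement. Each is read 5′ to 3′ along its gene.
Ccnb2, chr8:79981609-79981908, minus strand: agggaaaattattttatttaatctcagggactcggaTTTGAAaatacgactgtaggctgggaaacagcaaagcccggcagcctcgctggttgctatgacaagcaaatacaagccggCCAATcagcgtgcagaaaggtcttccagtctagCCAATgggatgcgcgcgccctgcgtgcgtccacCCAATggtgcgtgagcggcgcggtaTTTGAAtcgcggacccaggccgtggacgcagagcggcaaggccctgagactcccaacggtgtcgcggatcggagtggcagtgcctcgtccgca
Cdk1, chr20:19265043-19265342, plus strand: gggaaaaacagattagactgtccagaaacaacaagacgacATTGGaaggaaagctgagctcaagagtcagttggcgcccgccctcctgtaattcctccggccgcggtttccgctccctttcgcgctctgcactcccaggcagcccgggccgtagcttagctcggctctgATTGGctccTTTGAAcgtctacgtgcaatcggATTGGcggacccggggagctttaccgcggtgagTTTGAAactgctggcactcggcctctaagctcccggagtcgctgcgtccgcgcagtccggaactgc
Top2a, chr10:84473044-84473343, minus strand: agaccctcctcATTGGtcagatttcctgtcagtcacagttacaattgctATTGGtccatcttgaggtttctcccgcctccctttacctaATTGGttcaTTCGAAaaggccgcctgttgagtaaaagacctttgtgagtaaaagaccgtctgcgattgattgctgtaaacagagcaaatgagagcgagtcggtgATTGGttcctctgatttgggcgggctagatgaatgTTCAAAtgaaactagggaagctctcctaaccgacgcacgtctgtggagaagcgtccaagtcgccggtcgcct
Cdc20, chr5:137255750-137256049, minus strand: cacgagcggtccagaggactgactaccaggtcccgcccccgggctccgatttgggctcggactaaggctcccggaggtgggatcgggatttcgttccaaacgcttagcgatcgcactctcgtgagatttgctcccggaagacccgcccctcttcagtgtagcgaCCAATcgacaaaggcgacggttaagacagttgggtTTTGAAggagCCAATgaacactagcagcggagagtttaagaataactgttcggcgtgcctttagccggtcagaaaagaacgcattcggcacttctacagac
Aurka, chr3:181560720-181561019, minus strand: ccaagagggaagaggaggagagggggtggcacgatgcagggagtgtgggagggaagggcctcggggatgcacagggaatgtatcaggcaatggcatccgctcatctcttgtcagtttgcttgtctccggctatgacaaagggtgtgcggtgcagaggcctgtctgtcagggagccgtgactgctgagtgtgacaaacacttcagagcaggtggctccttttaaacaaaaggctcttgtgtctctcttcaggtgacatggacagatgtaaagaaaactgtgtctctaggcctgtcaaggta
A match is a description of letters and not evidence of binding.

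**Figure D2:**
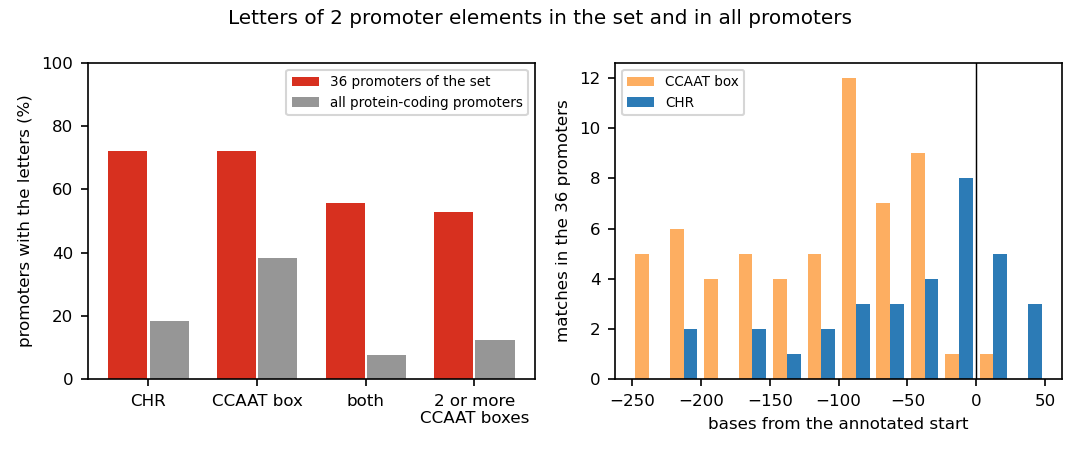
Left, the percentage of promoters that hold the letters of the CHR element, a CCAAT box, both, or at least 2 CCAAT boxes, among 36 promoters of the set (red) and all 19005 protein-coding promoters (grey). Right, where the matches in the 36 promoters begin, in bins along the distance in bases from the annotated start. CHR letters reach 72.2% in the set against 18.5% in all promoters, and CHR matches are most frequent just before the start.

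The chromosomal passenger complex, which corrects faulty attachments of chromosomes to the spindle, was higher in CLP in all 4 members. The median log2 change, 0.79, was lower than that of the cyclins. Birc5, or survivin, had 1.71, 2.40, 2.82, 4.54 and 3.97 CPM in CLP, against 2.19, 1.33, 1.81, 1.48 and 0.829 CPM in Sham. CLP replicate 1 fell within the Sham range and the other 4 CLP libraries lay above it, and the log2 change was 1.01 ± 0.35 (adjusted p = 0.0262). Incenp, the scaffold of the complex, had a log2 change of 0.64 ± 0.14 (adjusted p = 0.000962) with no overlap. Cdca8, or borealin, changed by 0.55 ± 0.16 with overlap (adjusted p = 0.0086). Aurkb, the kinase of the complex, was called narrowly, at 0.94 ± 0.36 (adjusted p = 0.0445), and its libraries did not follow the rest of the set.

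All 4 other mitotic kinases rose in CLP. Aurka, the kinase of the spindle poles, had 12.6, 11.8, 12.6, 14.1 and 14.6 CPM in CLP, against 5.78, 7.13, 7.62, 8.44 and 6.35 CPM in Sham. The 5 CLP libraries were close together and all lay above Sham, with a log2 change of 0.90 ± 0.12 (adjusted p = 7.27e-06). Plk1, a kinase of mitotic entry and spindle assembly, had 3.79, 4.24, 7.24, 7.03 and 7.86 CPM in CLP, against 1.48, 2.93, 3.19, 2.18 and 2.42 CPM in Sham. Its groups did not overlap, and the log2 change was 1.30 ± 0.29 (adjusted p = 0.0013). Melk and Pbk, 2 kinases that are abundant in dividing cells, changed by 1.29 ± 0.37 (adjusted p = 0.00883) and 0.96 ± 0.36 (adjusted p = 0.0396), both with overlap between the groups.

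Among the 5 genes of the spindle checkpoint and of the guard of sister cohesion, 4 were higher in CLP. Bub1b, a component of the inhibitor that the checkpoint sends to the APC/C, averaged 7.01 ± 2.54 CPM in CLP and 2.50 ± 0.78 CPM in Sham, a log2 change of 1.48 ± 0.35 (adjusted p = 0.0023). The checkpoint kinases Ttk and Bub1 changed by 1.34 ± 0.38 and 0.88 ± 0.18 (adjusted p = 0.0088 and 0.000718), and Sgo1, which protects cohesion at centromeres, by 1.18 ± 0.31 (adjusted p = 0.00526). Mad2l1, which encodes the checkpoint protein MAD2, was the exception. It had 9.07, 8.12, 9.63, 8.57 and 10.4 CPM in CLP, against 7.05, 11.2, 7.11, 9.35 and 7.04 CPM in Sham. The highest value belonged to Sham replicate 2, and the log2 change was 0.13 ± 0.13 (adjusted p = 0.457).

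The genes that act with the APC/C or at mitotic entry were higher in CLP in 3 of 3 cases. Ube2c, the ubiquitin-conjugating enzyme of the APC/C, had 3.07, 3.25, 5.93, 4.76 and 8.08 CPM in CLP, against 1.55, 1.75, 2.39, 1.97 and 0.76 CPM in Sham. Cdca3, a protein that promotes mitotic entry, had 3.57, 4.17, 4.49, 6.23 and 4.85 CPM in CLP, against 1.06, 2.03, 1.81, 2.60 and 0.276 CPM in Sham. Both were free of overlap, with log2 changes of 1.57 ± 0.34 (adjusted p = 0.000983) and 1.58 ± 0.40 (adjusted p = 0.00399). Cdc20, the activator of the APC/C that the checkpoint holds back, had 4.79, 6.21, 10.6, 9.81 and 8.89 CPM in CLP, against 4.23, 5.24, 4.93, 4.22 and 3.18 CPM in Sham. CLP replicate 1 lay inside the Sham range and the log2 change was 0.89 ± 0.26 (adjusted p = 0.00988).

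Of 6 centromere and kinetochore genes, 5 were higher in CLP. Cenpe, the kinesin that carries chromosomes to the middle of the spindle, averaged 7.88 ± 2.31 CPM in CLP and 3.25 ± 1.24 CPM in Sham, and Cenpf, a large kinetochore protein, averaged 12.5 ± 3.46 CPM in CLP and 5.24 ± 1.67 CPM in Sham. Their log2 changes were 1.28 ± 0.35 and 1.25 ± 0.35 (adjusted p = 0.00664 and 0.00798). Ndc80, Nuf2 and Spc25 encode parts of one complex that grips microtubules. Nuf2 changed by 1.21 ± 0.24 (adjusted p = 0.000582), Ndc80 by 1.04 ± 0.29 (adjusted p = 0.00726) and Spc25, which was not called, by 0.53 ± 0.28 (adjusted p = 0.144). Cenpa, the histone that marks centromeres, changed by 1.05 ± 0.26 (adjusted p = 0.00322).

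Kinesin motors divided. Kif2c, which dismantles microtubule ends at centromeres, changed by 1.40 ± 0.30 in CLP against Sham (adjusted p = 0.00116), Kif11, which pushes the spindle poles apart, by 1.35 ± 0.33 (adjusted p = 0.00272) and Kif20a, a motor of late mitosis, by 1.06 ± 0.24 (adjusted p = 0.00177). Kif23, a motor of the central spindle, had 14.4, 12.2, 19.5, 17.3 and 22.6 CPM in CLP, against 12.6, 19.2, 10.7, 12.3 and 10.4 CPM in Sham. Sham replicate 2 was higher than 3 of the 5 CLP libraries, and the log2 change was 0.40 ± 0.19 (adjusted p = 0.104). Without CLP replicate 3 or without Sham replicate 2, Kif23 was called, and its lowest adjusted p over the alternatives was 0.0158. Kif4a, which shapes chromosomes and the central spindle, had 10.7, 30.2, 33.7, 29.8 and 35.8 CPM in CLP, against 3.24, 24.7, 40.1, 28.0 and 20.6 CPM in Sham. It was low in 1 library of each group and highest in Sham replicate 3, with a log2 change of 0.27 ± 0.43 (adjusted p = 0.66). Without Sham replicate 1 this change was -0.018.

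All 6 genes of spindle microtubule proteins were higher in CLP. Nusap1 and Tpx2, which bind and nucleate spindle microtubules, changed by 1.36 ± 0.37 and 1.30 ± 0.33 (adjusted p = 0.00644 and 0.00393). Prc1, which bundles the microtubules between the separating chromosomes, averaged 25.5 ± 5.84 CPM in CLP and 12.5 ± 2.73 CPM in Sham, a log2 change of 1.03 ± 0.22 (adjusted p = 0.00118). Ckap2, Hmmr and Dlgap5, all microtubule-associated proteins of the spindle, changed by 1.23, 1.05 and 0.54. The 4 cytokinesis genes were also all higher. Cep55, which organises the final cut between daughter cells, had the highest log2 change of the set. It had 3.21, 3.60, 6.73, 6.59 and 7.13 CPM in CLP, against 1.34, 1.82, 1.74, 1.90 and 0.76 CPM in Sham, with no overlap, and changed by 1.85 ± 0.32 (adjusted p = 0.000164). Ect2, Anln and Racgap1, which build and anchor the contractile ring, changed by 1.31, 1.23 and 0.89 (adjusted p = 0.00148, 0.00486 and 0.00208).

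Foxm1, the transcription factor that activates many genes of late cycle, changed least among the genes that were called. It had 7.21, 8.61, 10.3, 9.08 and 9.63 CPM in CLP, against 7.48, 5.94, 6.89, 7.88 and 5.59 CPM in Sham. CLP replicate 1 lay within the Sham range, and the log2 change was 0.41 ± 0.14 (adjusted p = 0.0241). The call on Foxm1 was lost in 5 of the 26 alternative fits, among them those without CLP replicate 4 or 6 and without Sham replicate 2 or 5. Of the 40 calls, 35 held under all 26 alternative fits. Aurkb lost its call in 14 of the 26, among them the fits without CLP+VNS replicate 11, without any 1 of CLP replicates 3 to 6, without Sham+VNS replicate 2 and without any 1 of Sham replicates 1 to 4; its adjusted p ran from 0.00409 to 0.135. Birc5 lost it in 5 fits, among them those without CLP replicate 5 or 6 and without Sham replicate 2 or 5, with an adjusted p of up to 0.169. Pbk lost it without any 1 of CLP replicates 4, 5 and 6 or of Sham replicates 1, 4 and 5, with an adjusted p of up to 0.113. Dlgap5 lost it in 1 fit, at an adjusted p of 0.0564.

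The libraries of a group differed along the whole set. The mean log2 CPM of the 44 genes was 3.34, 3.21 and 3.29 in CLP replicates 4, 5 and 6, and 2.46 and 2.61 in CLP replicates 1 and 3. In Sham it was 1.71, 2.17, 2.17, 2.17 and 1.43 in replicates 1 to 5. All 5 CLP libraries thus lay above all 5 Sham libraries. In 40 of the 44 genes, CLP replicates 4, 5 and 6 were each higher than replicates 1 and 3, and in 32 of the 44 the lowest Sham library was replicate 5. Leaving out 1 library at a time gave 36 to 40 genes called higher in CLP, and DESeq2 called 40, where it called 20.8% of all genes higher.

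Markers of other cells were counted in CLP against Sham as well, where 19.8% of all genes were called higher and 20.5% lower. The part of these cells in the result was not tested. All 8 markers of mature neutrophils were higher in CLP, with sums of 2895.8 to 4695.9 CPM in CLP and 345.3 to 862.0 CPM in Sham. Of 9 neutrophil precursor markers in the table, 4 could be tested and 3 of these were higher, with sums of 36.5 to 130.0 CPM in CLP and 10.7 to 34.8 CPM in Sham. The 3 were Ngp, with 4.83 to 52.4 CPM in CLP and 0.0705 to 0.844 CPM in Sham, Camp, with 5.73 to 19.8 CPM in CLP and 0.0705 to 1.40 CPM in Sham, and Elane, with 0.366 to 3.18 CPM in CLP and 0.0 to 0.363 CPM in Sham. Fcnb, which was tested and not called, had 14.3 to 53.3 CPM in CLP and 6.91 to 32.6 CPM in Sham. Over the 4 tested markers the median log2 change was 3.39. Mpo, Prtn3, Ctsg and Ltf did not exceed 0.565 CPM in any CLP library, while Mpo had 9.94 CPM in Sham replicate 1. All 8 T cell markers were lower, with sums of 61.5 to 70.0 CPM in CLP and 108.1 to 167.0 CPM in Sham. Monocyte and macrophage markers were higher in 4 and lower in 1 of 9, with sums of 1038.5 to 1275.7 CPM in CLP and 653.8 to 834.6 CPM in Sham. Among the CLP libraries, this last sum was 1275.7, 1138.3 and 1196.6 CPM in replicates 4, 5 and 6 and 1049.0 and 1038.5 CPM in replicates 1 and 3. Within that list, Mrc1, its most abundant member, Adgre1 and Cd68 split in this way, and the other members did not. Mature neutrophil markers did not follow that split: their highest sum, 4695.9 CPM, was in CLP replicate 3. Erythroid precursor sums did follow it, with 135.0, 124.6 and 123.4 CPM in CLP replicates 4, 5 and 6. CLP replicates 1 and 3 had 96.7 and 116.1 CPM of them. Sums of alveolar type 2 and of heart muscle markers were lower in CLP replicates 4, 5 and 6 than in 1 and 3. Endothelial markers were higher in 1 and lower in 3 of 7, with sums of 2614.2 to 3311.5 CPM in CLP and 3141.2 to 3754.2 CPM in Sham. Markers of alveolar type 1 cells were lower in 4 of 6, of heart muscle in 4 of 4 and of fat in 2 of 3 tested, and without Sham replicate 1, the library rich in the last 2, 38 of the 44 genes were called higher. Erythroid precursor markers, 1 higher and 1 lower of 6 tested, summed to 96.7 to 135.0 CPM in CLP and 76.6 to 115.6 CPM in Sham.

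Other parts of the cell cycle were counted beside the set, in the same fit, where 19.8% of all genes were called higher in CLP and 20.5% lower. Among 52 further mitotic genes, 31 were higher and 2 lower in CLP, with a median log2 change of 0.85. Pimreg and Cks2 changed most, by 1.79 ± 0.70 and 1.61 ± 0.36 (adjusted p = 0.0466 and 0.00159), while Fam83d, which helps align chromosomes, and Stmn1, which destabilises microtubules, fell by 0.84 and 0.50 on the log2 scale. Of 41 DNA replication genes, 7 were higher and 3 lower, and the median log2 change was 0.011. Clspn and Uhrf1 rose by 1.17 and 1.01, and Dut and Tyms, which serve the supply of thymidine nucleotides, fell by 0.55 and 0.33 on the log2 scale. Pcna, the clamp of the replication fork, was called at a log2 change of 0.25 ± 0.04.

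Of 17 genes of G1 and S entry, 5 were higher and 4 lower in CLP, where 19.8% and 20.5% of all genes were. Myc and E2f2 rose by 0.87 and 0.83, and E2f1 and Ccnd2 each fell by 0.46 on the log2 scale. Of 14 genes of the DREAM complex and its MuvB core, 6 were higher and none lower, led by Mybl2, which joins MuvB to activate late genes, at 1.13 ± 0.32, and Lin54, the subunit that binds CHR elements, at 0.50 ± 0.09. The smallest called changes in that list were those of E2f5 and Lin37, at 0.24 and 0.25. Inhibitors of the cycle were higher in 11 of 17 and lower in 1. Cdkn1a, which encodes the kinase inhibitor p21, had 106.7, 153.3, 116.3, 112.6 and 130.8 CPM in CLP, against 18.1, 20.9, 29.1, 25.4 and 26.1 CPM in Sham. The groups were far apart, with a log2 change of 2.37 ± 0.16 (adjusted p = 2.28e-08). Gadd45g rose by 0.85, Cdkn1b, the lowest of the called increases in that list, by 0.31, and Cdkn2b fell by 0.66 on the log2 scale. APC/C subunits and partners, 17 in all, had 2 higher (Fbxo5 at 0.56, Ube2s at 0.29), 2 lower (Anapc13 at -0.30, Cdc26 at -0.26) and a median of -0.026.

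**Figure D3:**
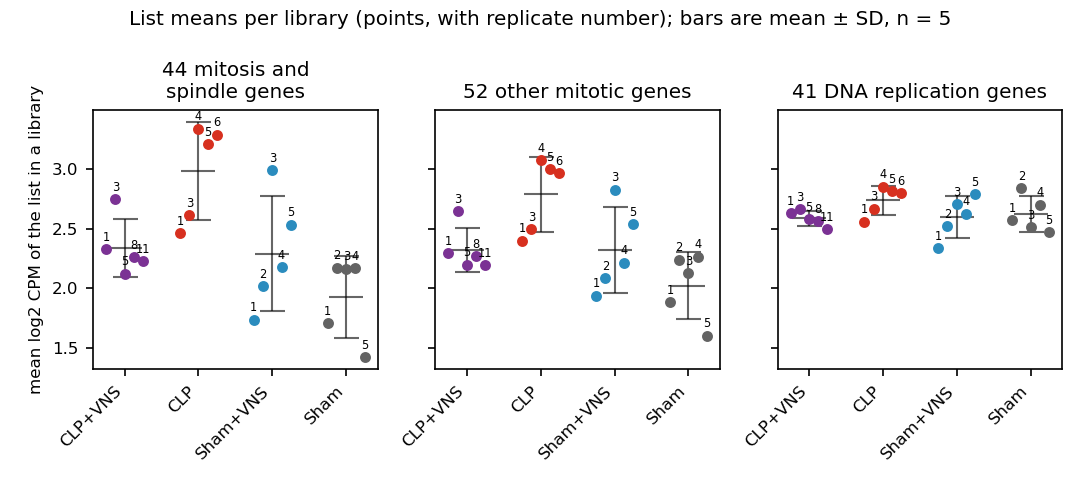
Points are libraries with their replicate number, and bars show the group mean ± SD (n = 5). The vertical axis is the mean log2 CPM over the 44 genes (left), 52 other mitotic genes (middle) and 41 DNA replication genes (right). In the left panel CLP lies between 2.46 and 3.34 and Sham between 1.43 and 2.17, while the replication genes overlap in all 4 groups.

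With the stimulation in both arms, a single gene of the set was called between the operations. In CLP+VNS against Sham+VNS, 1 of the 44 genes was called higher and none lower, where 13.9% of all genes were called higher. Of all genes 13.4% were called lower. The median log2 change of the set was -0.025, with medians of -0.149 to 0.206 when 1 library was left out, the lowest without Sham+VNS replicate 1 and the highest without Sham+VNS replicate 3. At an unadjusted p below 0.05 there were 2 genes, 1 of them lower, where 37.5% of all genes passed in either direction. The gene called was Aurka, which had 14.0, 9.32, 11.2, 9.97 and 11.8 CPM in CLP+VNS replicates 1, 3, 5, 8 and 11, against 9.14, 7.51, 8.98, 7.99 and 8.30 CPM in Sham+VNS replicates 1 to 5. All CLP+VNS libraries lay above all Sham+VNS libraries, and the log2 change was 0.43 ± 0.12 (adjusted p = 0.00903). The call was lost in 1 of the 26 alternative fits, at an adjusted p of 0.079. Aurka was also the single gene of the set without overlap in this comparison, where 9.65% of all genes had none in that direction.

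CLP+VNS and Sham+VNS overlapped for the other 43 genes. Mki67 had 19.2, 24.4, 17.4, 18.2 and 18.9 CPM in CLP+VNS, against 12.0, 15.7, 34.6, 18.8 and 27.9 CPM in Sham+VNS. Cdk1 had 5.97, 8.75, 5.91, 5.06 and 5.40 CPM in CLP+VNS, against 3.94, 4.10, 11.5, 4.71 and 6.83 CPM in Sham+VNS. In both genes the highest value belonged to Sham+VNS replicate 3, and the log2 changes were -0.15 ± 0.26 and -0.002 ± 0.30 (adjusted p = 0.716 and 0.997). Top2a had 10.8, 16.8, 8.79, 9.69 and 8.07 CPM in CLP+VNS, against 4.71, 7.37, 21.7, 9.13 and 14.3 CPM in Sham+VNS. Ccnb1 had 3.50, 6.31, 3.60, 4.13 and 4.14 CPM in CLP+VNS, against 3.51, 2.92, 6.65, 3.92 and 4.71 CPM in Sham+VNS. Ccna2 had 3.58, 5.30, 3.17, 3.99 and 2.60 CPM in CLP+VNS, against 2.18, 2.43, 5.97, 2.50 and 4.01 CPM in Sham+VNS. The 3 genes shared the pattern of a high CLP+VNS replicate 3 and a still higher Sham+VNS replicate 3, and the groups overlapped.

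Kinases and APC/C genes overlapped likewise, except Aurka. Plk1 had 3.80, 5.66, 2.88, 3.21 and 3.72 CPM in CLP+VNS, against 2.11, 2.78, 5.69, 2.43 and 3.73 CPM in Sham+VNS. Cdc20 had 4.92, 6.02, 3.96, 3.92 and 4.00 CPM in CLP+VNS, against 3.30, 4.24, 9.12, 3.78 and 5.14 CPM in Sham+VNS. Ube2c had 2.68, 3.01, 1.66, 2.14 and 2.11 CPM in CLP+VNS, against 1.19, 1.46, 3.43, 1.57 and 2.96 CPM in Sham+VNS. Sham+VNS replicate 3 was again the highest library of its group for each of them. Cep55 had 2.68, 3.66, 1.95, 2.07 and 2.25 CPM in CLP+VNS, against 1.90, 1.88, 5.28, 2.43 and 3.38 CPM in Sham+VNS. Cdca3 had 2.16, 3.58, 1.95, 2.21 and 2.18 CPM in CLP+VNS, against 1.55, 1.11, 4.80, 2.78 and 2.25 CPM in Sham+VNS. Their log2 changes, -0.24 ± 0.32 and -0.05 ± 0.40, were smaller than their standard errors (adjusted p = 0.632 and 0.947).

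Birc5, Foxm1, Mad2l1, Kif23 and Kif4a were not called in this comparison either. Birc5 had 1.64, 2.44, 1.30, 1.92 and 3.02 CPM in CLP+VNS, against 1.27, 1.11, 3.09, 1.28 and 3.10 CPM in Sham+VNS. Foxm1 had 6.49, 7.24, 4.76, 5.98 and 5.12 CPM in CLP+VNS, against 5.90, 6.12, 8.57, 6.78 and 7.39 CPM in Sham+VNS. Mad2l1 had 9.84, 8.17, 8.07, 6.91 and 8.42 CPM in CLP+VNS, against 7.45, 8.20, 9.81, 8.92 and 9.29 CPM in Sham+VNS. All 3 overlapped, with log2 changes of 0.07 ± 0.35, -0.23 ± 0.14 and -0.08 ± 0.13. Kif23 had 10.1, 15.3, 11.9, 13.2 and 10.3 CPM in CLP+VNS, against 13.1, 13.2, 21.3, 18.2 and 17.5 CPM in Sham+VNS. It had the most negative log2 change of the set in this comparison, -0.45 ± 0.19, with an adjusted p of 0.0866. Kif4a had 27.7, 26.4, 30.4, 41.2 and 17.7 CPM in CLP+VNS, against 24.9, 15.4, 14.1, 29.3 and 32.6 CPM in Sham+VNS, and overlapped throughout.

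The pathway lists were counted in CLP+VNS against Sham+VNS as well, and whether their counts differ from those in CLP against Sham was not tested. In CLP+VNS against Sham+VNS, 13.9% of all genes were called higher and 13.4% lower. Of the 52 further mitotic genes, 2 were higher (Cks1b at 0.72 and Lmnb1 at 0.39) and 2 lower (Fam83d at -1.20 and Spc24 at -0.70). DNA replication had 2 of 41 higher and 2 lower. Inhibitors of the cycle were higher in 10 of 17 and lower in 2. Cdkn1a had 155.7, 167.4, 135.0, 100.8 and 177.5 CPM in CLP+VNS, against 35.6, 36.1, 40.1, 26.2 and 33.6 CPM in Sham+VNS, a log2 change of 2.10 ± 0.16 (adjusted p = 8.32e-08) with no overlap. Mature neutrophil markers were higher in 6 of 8, with sums of 1623.8 to 4453.4 CPM in CLP+VNS and 308.6 to 671.3 CPM in Sham+VNS. All 8 T cell markers were lower, with sums of 63.1 to 84.9 CPM in CLP+VNS and 87.9 to 125.5 CPM in Sham+VNS. The part of these cells in the values of the set was not tested.

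**Figure D4:**
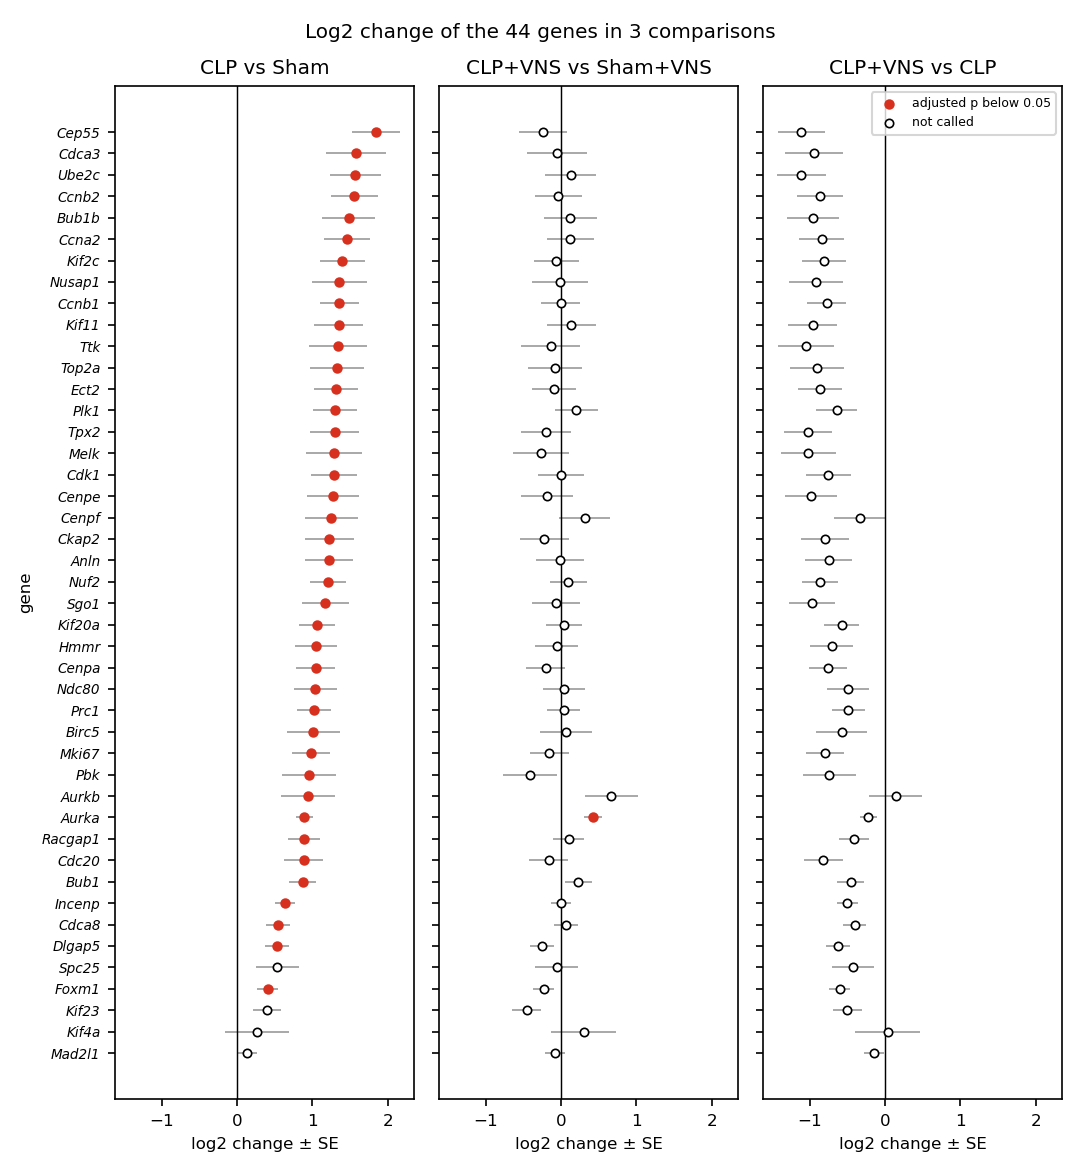
Log2 change of each of the 44 genes (points) with its SE (lines) in CLP against Sham (left), CLP+VNS against Sham+VNS (middle) and CLP+VNS against CLP (right), sorted by the left panel. Filled red points have an adjusted p below 0.05 in edgeR's quasi-likelihood test: 40 in the left panel, Aurka alone in the middle and none on the right. The left and right panels share the CLP libraries, and the middle and right panels share the CLP+VNS libraries.

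CLP+VNS lungs had lower values than CLP lungs for most of the set, without any gene of it passing the adjusted threshold. In edgeR's quasi-likelihood test none of the 44 was called in CLP+VNS against CLP, where 4 of 14794 genes were, all lower, which is 0.027%. The log2 change was negative for 42 of the 44, with a median of -0.75, against 48.6% negative and a median of 0.004 over all genes. At an unadjusted p below 0.05, 34 of the 44 were lower, where 6.67% of all genes were. For Ube2c and Cenpe, all CLP+VNS libraries lay below all CLP libraries, which held for 1.14% of all genes. DESeq2 called 4 of the 44 lower, Foxm1, Dlgap5, Incenp and Cep55, where it called 0.602% of all genes lower. These comparisons use the same CLP libraries as CLP against Sham, so that a high CLP value enters both.

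The most negative values were those of Cep55, Ube2c, Ttk, Tpx2 and Melk. Cep55 and Ube2c each had a log2 change of -1.11, with SE 0.31 and 0.33 (adjusted p = 0.181 and 0.187). Cep55 averaged 2.52 ± 0.69 CPM in CLP+VNS and 5.45 ± 1.88 CPM in CLP, and Ube2c averaged 2.32 ± 0.53 CPM in CLP+VNS and 5.02 ± 2.07 CPM in CLP. Ttk, Tpx2 and Melk had values of -1.05 ± 0.38, -1.02 ± 0.32 and -1.02 ± 0.36 (adjusted p = 0.247, 0.203 and 0.245). CLP+VNS and CLP still overlapped for these 3 genes.

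Foxm1 had the lowest adjusted p of the set in this comparison. It averaged 5.92 ± 1.01 CPM in CLP+VNS and 8.98 ± 1.18 CPM in CLP, and CLP+VNS replicate 3 at 7.24 CPM was above CLP replicate 1 at 7.21 CPM. The log2 change was -0.60 ± 0.14 (adjusted p = 0.127). With DESeq2 its adjusted p was 0.0127, and in edgeR without CLP+VNS replicate 1 it was 0.0358. Dlgap5 averaged 5.92 ± 0.81 CPM in CLP+VNS and 9.10 ± 2.26 CPM in CLP, a log2 change of -0.62 ± 0.16 (adjusted p = 0.173), and Incenp had -0.50 ± 0.14 (adjusted p = 0.177). DESeq2 gave adjusted p-values of 0.0374 for Dlgap5, 0.0479 for Incenp and 0.0496 for Cep55.

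For the proliferation and cyclin genes the CLP+VNS values lay near the 2 lower libraries of the CLP group. Mki67 averaged 19.6 ± 2.76 CPM in CLP+VNS and 34.1 ± 10.8 CPM in CLP, a log2 change of -0.80 ± 0.26 (adjusted p = 0.205). The SD of Mki67 was thus larger in CLP, where replicates 1 and 3 had 22.8 and 22.1 CPM, inside the CLP+VNS range of 17.4 to 24.4 CPM. Cdk1 averaged 6.22 ± 1.46 CPM in CLP+VNS and 10.5 ± 4.14 CPM in CLP, a log2 change of -0.75 ± 0.30 (adjusted p = 0.293). The 2 genes with a positive log2 change were Aurkb, at 0.14 ± 0.35, and Kif4a, at 0.03 ± 0.43. Aurka, at -0.22 ± 0.11 (adjusted p = 0.414), averaged 11.3 ± 1.82 CPM in CLP+VNS and 13.2 ± 1.18 CPM in CLP.

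Per library, the mean log2 CPM of the 44 genes was 2.33, 2.75, 2.12, 2.26 and 2.23 in CLP+VNS replicates 1, 3, 5, 8 and 11, against 2.46, 2.61, 3.34, 3.21 and 3.29 in CLP replicates 1, 3, 4, 5 and 6. CLP+VNS replicate 3, the highest of its group in 38 of the 44 genes, lay above CLP replicates 1 and 3. Leaving out 1 library at a time gave medians of -0.91 to -0.63. Among the 52 further mitotic genes, Tacc3, which stabilises spindle microtubules, was the only one called, at -0.73 ± 0.12 (adjusted p = 0.0421). Tacc3 had 15.2, 16.4, 11.7, 13.0 and 15.8 CPM in CLP+VNS, against 18.8, 26.9, 26.8, 22.9 and 24.0 CPM in CLP, with no overlap. Its call was lost in 14 of the 20 fits that left out 1 library, with adjusted p-values of 0.0125 to 0.149. The other pathway lists had no gene called, and the median of the 41 DNA replication genes was -0.081. None of the 12 cell type lists had a gene called at the adjusted threshold. At an unadjusted p below 0.05, 6 of 7 endothelial markers were higher, where 6.35% of all genes were. By the same threshold 6 of 9 monocyte and macrophage markers were lower, where 6.67% of all genes were. Endothelial sums were 2958.5 to 4685.6 CPM in CLP+VNS and 2614.2 to 3311.5 CPM in CLP, with a median log2 change of 0.36. Sums of mature neutrophil markers were 1623.8 to 4453.4 CPM in CLP+VNS and 2895.8 to 4695.9 CPM in CLP. Sums of monocyte and macrophage markers were 800.7 to 1150.0 CPM in CLP+VNS and 1038.5 to 1275.7 CPM in CLP, and the part of all these cells in the values of the set was not tested.

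Stimulation after sham surgery gave no called gene in the set. In Sham+VNS against Sham, none of the 44 was called by edgeR and none of all 14794 genes was, which is 0.0% called. At an unadjusted p below 0.05, 6 of the 44 passed, all higher, where 3.92% of all genes were higher. DESeq2 called none of the 44 and 0.0406% of all genes. The median log2 change was 0.43, and the groups overlapped for all 44 genes. Cep55 had the largest log2 change, 0.97 ± 0.33 (adjusted p = 0.56), averaging 2.97 ± 1.43 CPM in Sham+VNS and 1.51 ± 0.47 CPM in Sham.

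A single library weighed on that median. Sham+VNS replicate 3 was the highest of its group in 37 of the 44 genes, and its mean log2 CPM over the set was 2.99, against 1.74, 2.02, 2.18 and 2.53 in Sham+VNS replicates 1, 2, 4 and 5. Without that library the median was 0.16. The same library had the lowest sums of mature neutrophil markers, 308.6 CPM, of monocyte and macrophage markers, 702.0 CPM, and of T cell markers, 87.9 CPM, in the Sham+VNS group. It also had the highest sum of alveolar type 1 markers, 8281.2 CPM, and the part of these cells was not tested.

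The interaction asks whether the difference of CLP+VNS from CLP departs from that of Sham+VNS from Sham. In edgeR's quasi-likelihood test none of the 44 genes and none of all genes was called, which is 0.0%. The interaction value was negative for 43 of the 44, with a median of -1.17 on the log2 scale, against 0.008 over all genes. Of all genes 47.8% had a negative value. At an unadjusted p below 0.05 there were 38, all negative, where 4.08% of all genes were. DESeq2 called 1 of the 44, Cep55, at -2.09 ± 0.47 (adjusted p = 0.0245), where edgeR gave it -2.08 ± 0.45 (adjusted p = 0.501). DESeq2 called 0.027% of all genes negative. The 4 groups of Cep55 averaged 2.52 ± 0.69 CPM in CLP+VNS, 5.45 ± 1.88 CPM in CLP, 2.97 ± 1.43 CPM in Sham+VNS and 1.51 ± 0.47 CPM in Sham. Without Sham+VNS replicate 3 the median interaction value was -0.92.

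Aurkb and Kif4a stood apart from the set, and the deposited transcript table showed where their reads had been placed. Aurkb had 9.32, 19.6, 6.99, 7.55 and 13.5 CPM in CLP+VNS, 7.86, 16.3, 9.19, 9.23 and 9.04 CPM in CLP, 4.85, 8.07, 8.78, 4.35 and 9.78 CPM in Sham+VNS, and 2.96, 4.05, 3.41, 5.63 and 10.8 CPM in Sham. Its highest Sham library was replicate 5, the lowest of that group for most of the set, and its highest CLP library was replicate 3. The estimated counts of Aurkb were divided chiefly between 2 transcripts. The curated transcript NM_053749 averaged 3.31 ± 1.76 CPM in CLP+VNS, 4.85 ± 2.20 CPM in CLP, 3.06 ± 1.66 CPM in Sham+VNS and 2.23 ± 0.61 CPM in Sham. The predicted transcript XM_008767758 averaged 7.50 ± 4.71 CPM in CLP+VNS, 4.79 ± 3.73 CPM in CLP, 3.72 ± 1.94 CPM in Sham+VNS and 2.69 ± 2.57 CPM in Sham.

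The predicted Aurkb transcript held the values that set the gene apart. It had 10.5 CPM in CLP replicate 3 and 14.2 CPM in CLP+VNS replicate 3, and 7.22 CPM in Sham replicate 5 against 1.08 to 1.97 CPM in the other Sham libraries. Markers of ciliated airway cells, a list of 20 genes chosen after the values were seen, summed to 740.0 CPM in CLP+VNS replicate 3, 472.3 CPM in CLP replicate 3 and 641.1 CPM in Sham replicate 5, the highest library of each group. In Sham+VNS both were highest in replicate 2, with a sum of 785.0 CPM and 5.83 CPM of the transcript, while replicate 5 had 569.3 CPM and 5.76 CPM and replicate 3, the second highest by the markers at 654.2 CPM, had 2.76 CPM of the transcript. The lowest CLP sum, 377.8 CPM in replicate 1, went with 6.02 CPM of the transcript, and Sham replicate 4, with a sum of 574.6 CPM, had 1.91 CPM of it. The part of those cells in the values was not tested. Kif4a was divided between the predicted transcripts XM_006257113 and XM_006257114, and in most libraries nearly all of its reads stood on one of them. XM_006257113 held 27.7 CPM in CLP+VNS replicate 1 and 0.0 CPM in CLP+VNS replicate 3, where XM_006257114 held 26.4 CPM. No label says how reads shared between transcripts were divided.

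**Figure D5:**
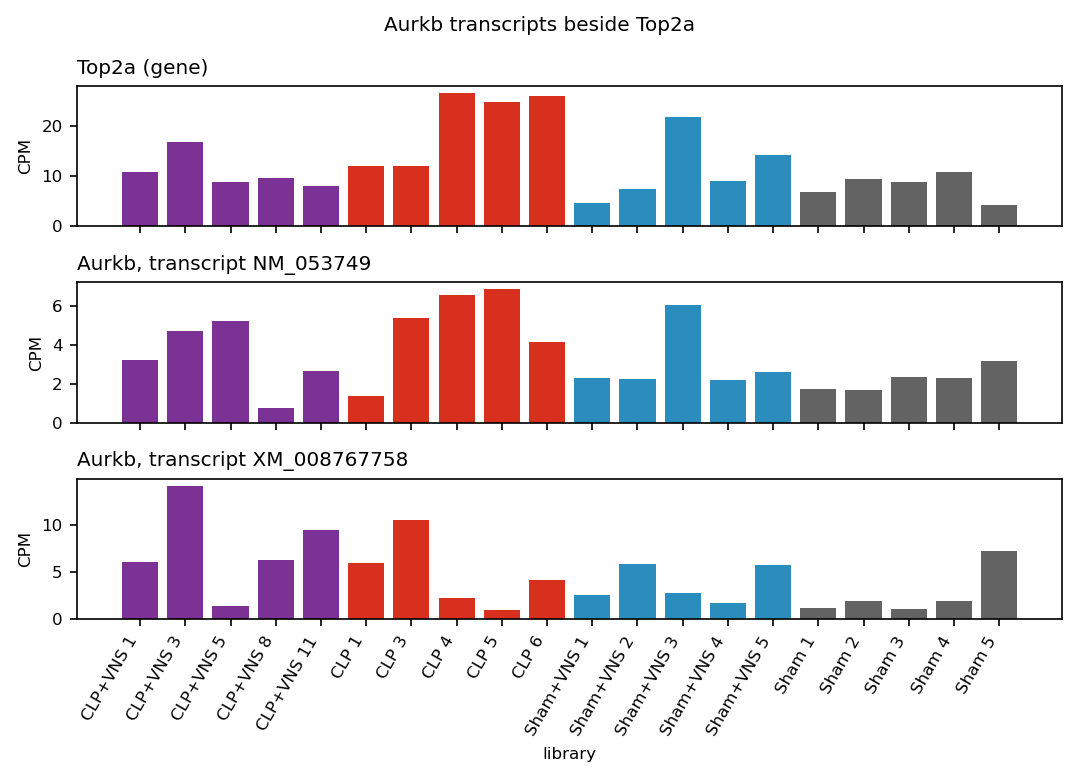
Bars give CPM in each of the 20 libraries for the gene Top2a (top) and the Aurkb transcripts NM_053749 (middle) and XM_008767758 (bottom), coloured by group in the order CLP+VNS, CLP, Sham+VNS and Sham. The predicted transcript is highest in CLP+VNS replicate 3 and CLP replicate 3, at 14.2 and 10.5 CPM, and in Sham in replicate 5, where Top2a is at its lowest.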

How the data were processed

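RNA-seq of whole rat lung, strand-specific and poly(A)-selected per the labels' protocols, was deposited as 1 table per gene and 1 per transcript. The authors deposited estimated counts, TPM, FPKM and a normalized signal per library, per the file headers; of the gene counts, 91.5% are whole numbers. Per the submitters' processing notes the build was mRatBN7.2; no source used here names the aligner or the counter. The deposited FPKM, normalized signal and group averages were not used. Estimated counts were rounded. Genes passing filterByExpr (minimum count 10; 14794 genes) were scaled by TMM and fitted as 4 group means over 20 libraries with edgeR 4.0.16 (quasi-likelihood, robust, 16 residual degrees of freedom, biological coefficient of variation 0.161) in R 4.3.3. The 5 comparisons were two-sided, with Benjamini-Hochberg adjustment over all genes tested; errors are SE for log2 changes and SD for levels. Transcript CPM used the same factors. DESeq2 1.42.0, other scalings, no filter, a block on replicate number, only the groups compared, and leaving out each library were the alternatives. The fits were tested on simulated data. The labels give 5 rats per group and do not say outright that each library is 1 animal. The p-values therefore weigh group differences against the spread between these libraries. Of the gene identifiers, 18800 were found in the RefSeq table of GRCr8, including all 44; that build is not the one of the counts. Members and lists were chosen with earlier results of these data known; the ciliated list was added after the values were seen. Named genes followed a rule: every member by role, library values for 10 set members, for the 3 highest and 3 lowest log2 changes in CLP against Sham, and for members called in a VNS comparison (none was), and for each pathway list the 2 highest and 2 lowest called changes; Aurkb, Pcna, Tacc3 and the genes that only CLP+VNS against Sham+VNS or DESeq2 called were named after their values were seen.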

Additional observations from a re-analysis of the deposited data

Results flagged for a closer look

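In 13 of the 176 groups of 5 libraries (44 genes in 4 groups), 1 library lay far from the other 4 by Dixon's test. Chance alone gives this in about 1 group in 20. The genes share their libraries, so the groups are not independent and the 13 cannot be weighed against that rate. The high library was CLP+VNS replicate 3 in 7 of the 13. Mki67 had 24.4 CPM there, against 17.4 to 19.2 CPM in the other CLP+VNS libraries. Ccnb1 had 6.31 CPM, Cdk1 8.75 CPM, Cdca3 3.58 CPM, Nusap1 6.74 CPM, Anln 13.3 CPM and Ect2 5.74 CPM in the same library. Sham+VNS replicate 3 was high in 3 groups, with Pbk at 5.01 CPM, Ckap2 at 11.1 CPM and Anln at 15.2 CPM. The others were Aurkb at 16.3 CPM, high in CLP replicate 3, Kif4a at 10.7 CPM, low in CLP replicate 1, and Kif23 at 19.2 CPM, high in Sham replicate 2.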

How the results depend on the processing

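In CLP against Sham, the number of the 44 genes called higher was 36 to 40 without 1 library at a time, 40 with DESeq2, 39 on total counts only and 36 with a block on the replicate number, which lost the calls on Aurkb, Birc5, Foxm1 and Dlgap5. In CLP+VNS against Sham+VNS, Aurka was called in every fit that left out 1 library, and 0 genes were called with the replicate block, where the pathway genes called lower numbered 3; without 1 library these ran from 6 to 11. In CLP+VNS against CLP, DESeq2 called 4 of the 44 and 4 pathway genes lower. The pathway genes called lower there were 0 on total counts only, 0 with the replicate block and 0 with only the groups compared, and both counts ran from 0 to 1 without 1 library. DESeq2 called 1 of the 44 lower in the interaction. The sign turned for Kif4a in CLP against Sham without Sham replicate 1, at -0.018 (-0.018 to 0.55 over the fits without 1 library), and for Mad2l1 in CLP+VNS against CLP with the replicate block, at 0.024. The causes were not tested. Libraries of equal number did not deviate together (correlations of -0.14 to 0.18), and the labels do not say that equal numbers pair animals, so the block rests on a number only. Depth limits the scarcest genes, with counts down to 4 in a library.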
